A study of Mus musculus with 32 samples.

Results

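A set of 9 genes whose products make or remove reactive oxygen species was followed in transferred mouse monocytes and in the cells recovered from the gut after the transfer. They were chosen by symbol, and all 9 were present among the 24411 genes counted in the CD11c-DTR libraries and among the 24421 genes counted in the CX3CR1-DTR libraries. Cybb, Cyba, Ncf1 and Ncf4 encode subunits of the phagocyte NADPH oxidase. Nox1 and Duox2 encode oxidases of epithelial cells, and Sod1, Sod2 and Cat encode scavengers.

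The phagocyte oxidase passes electrons from NADPH across a membrane onto oxygen and so makes superoxide, the starting point of the oxidants that phagocytes use against microbes. Its membrane core is a pair of proteins, gp91phox (Cybb) and p22phox (Cyba), and cytosolic subunits including p47phox (Ncf1) and p40phox (Ncf4) join the core on activation. NOX1 is a close relative of gp91phox that is found in the colonic epithelium, uses p22phox as its partner, and is switched on by the organiser NOXO1 and the activator NOXA1. DUOX2 is an epithelial oxidase that releases hydrogen peroxide at the mucosal surface. Superoxide dismutases turn superoxide into hydrogen peroxide, SOD1 in the cytosol and SOD2 in mitochondria, and catalase splits hydrogen peroxide into water and oxygen.

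Libraries were made from sorted mouse cells. The graft group holds 3 libraries. By the methods the graft was bone marrow monocytes (CD11b+ CD115+ Ly6C+) of Cx3cr1 GFP/+ donors that carried CD45.1, whereas the labels of these libraries give blood as the organ, the Itgax-DTR/GFP transgene as the genotype and no diphtheria toxin. Recipients were wild-type C57BL/6 mice that had been irradiated at 7 to 10 weeks of age and reconstituted with CD11c-DTR bone marrow, in which the Itgax promoter drives the diphtheria toxin receptor, so that diphtheria toxin removed CD11c-expressing cells of blood origin and left the host epithelium and stroma in place. Graft-derived CX3CR1/GFP+ macrophages were sorted from the colon on day 4 (n = 3), day 8 (n = 3) and day 12 (n = 4) after the transfer and from the ileum on the same days (n = 4 each). A further colon day 8 library was left out of the fits, because the published account counts fewer libraries for that day, and is given apart. That count alone does not say which library to leave out. The day 8 comparison of colon with ileum depends on this choice. Another 6 colon libraries came from CX3CR1-DTR recipients. By the published account these were also chimeras of wild-type mice, given bone marrow in which the Cx3cr1 locus drives the receptor. The cells were harvested on day 14 and gated as CD45+ CD11b+ CD64+ Ly6C- MHCII+ cells. All these engrafted groups received diphtheria toxin. The published account also counts fewer CX3CR1-DTR libraries, and all 6 were used here because nothing in the labels sets one apart. The label dates place the CD11c-DTR libraries in 3 transfer experiments. One ileum day 8 library carries a date a year before those of experiment 3 and was taken as part of it. In addition, nothing in the labels says whether a library came from 1 animal or from several, so p-values measure the spread between these samples, which may be technical.

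The depth ranged from 591817 to 5228664 reads on genes in the CD11c-DTR libraries and from 1223772 to 4218027 in the CX3CR1-DTR libraries. Levels are normalized reads, that is reads per 10000000 mapped reads, unless reads on genes are named as the base. The summed level of 15 epithelial genes (Epcam, Krt8, Cdh1 and others) was 36.8 to 58.9 normalized reads in the graft, with up to 9 of the 15 at 0, 105697 to 167015 in the 10 colon libraries and 19900.5 to 131272 in the 12 ileum libraries. The summed level of 12 pan-leukocyte genes (Ptprc, Laptm5, Coro1a and others) was 89958 to 99471 in the graft, 2094 to 7775 in the colon and 5105 to 35961 in the ileum, with none of the 12 at 0. The summed level of 10 macrophage genes (Csf1r, Mertk, C1qa and others) was 12542 to 16694, 3968 to 22554 and 10218 to 106254 in graft, colon and ileum. The summed level of 7 neutrophil granule genes (Mpo, Elane, Camp and others) was 4001 to 6488 in the graft and at most 939.8 in the gut, and that of 8 stromal genes (Col1a1, Pecam1 and others) 75.8 to 116 in the graft, 607 to 5183 in the colon and 627 to 6442 in the ileum. Epithelial transcripts were thus abundant in libraries labelled as macrophages, more so in the colon than in the ileum, and in bulk samples fewer cells of a type and less RNA per cell cannot be told apart.

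The promoters of 4 members are printed to set a pair of phagocyte oxidase genes beside the epithelial oxidase Nox1 and the scavenger Sod1, whose levels ran differently through the libraries. RefSeq windows (GRCm38.p6) of 300 bases, 250 before the start and 50 after it, were matched by symbol for 8 of the 9 genes, all but Ncf4. Capitals mark matches on either strand to GAGGAA (the core bound by PU.1-type factors), AGATAA (the motif of the GATA family) and TGACNNNGC (the antioxidant response element). The motifs do not overlap each other in these windows.
Cybb, chrX:9469275-9469574, minus strand: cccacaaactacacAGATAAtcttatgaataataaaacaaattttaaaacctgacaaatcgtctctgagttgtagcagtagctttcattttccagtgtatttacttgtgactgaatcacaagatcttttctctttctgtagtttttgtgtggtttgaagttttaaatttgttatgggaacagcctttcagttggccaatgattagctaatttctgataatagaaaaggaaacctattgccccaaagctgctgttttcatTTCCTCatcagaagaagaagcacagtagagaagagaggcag
Cyba, chr8:122432891-122433190, minus strand: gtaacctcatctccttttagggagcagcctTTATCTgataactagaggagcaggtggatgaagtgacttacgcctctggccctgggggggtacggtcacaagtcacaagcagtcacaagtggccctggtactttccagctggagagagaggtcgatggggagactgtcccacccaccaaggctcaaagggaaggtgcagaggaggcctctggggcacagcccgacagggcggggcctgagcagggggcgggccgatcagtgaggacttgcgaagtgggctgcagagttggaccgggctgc
Nox1, chrX:134111805-134112104, minus strand: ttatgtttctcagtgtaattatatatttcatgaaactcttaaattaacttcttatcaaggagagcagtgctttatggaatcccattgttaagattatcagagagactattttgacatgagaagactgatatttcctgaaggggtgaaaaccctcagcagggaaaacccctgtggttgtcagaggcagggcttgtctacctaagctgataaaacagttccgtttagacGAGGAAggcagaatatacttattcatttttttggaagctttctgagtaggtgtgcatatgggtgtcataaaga
Sod1, chr16:90220512-90220811, plus strand: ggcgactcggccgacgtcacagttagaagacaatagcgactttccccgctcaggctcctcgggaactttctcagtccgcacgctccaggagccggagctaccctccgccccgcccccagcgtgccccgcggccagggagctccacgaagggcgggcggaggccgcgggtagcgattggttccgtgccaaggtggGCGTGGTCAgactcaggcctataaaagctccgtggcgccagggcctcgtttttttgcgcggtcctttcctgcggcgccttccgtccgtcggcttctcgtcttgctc
GAGGAA occurred once each in the windows of Cybb, Nox1, Sod2 and Cat, and 28.3% of all 32851 promoters of this length held it. AGATAA occurred in the windows of Cybb and Cyba, against 11.2% of all promoters. TGACNNNGC occurred in the window of Sod1 and in none of the other 7, against 12.4% of all promoters. The Cybb match to GAGGAA lay at base 10 downstream of the start on the opposite strand, and the Nox1 match began 23 bases upstream on the gene's strand. These matches describe letters only.

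On mm9, the build of the count tables, the genes lie apart: Cybb at chrX:9012380-9046450 on the minus strand, Cyba at chr8:124948671-124956840 on the minus strand, Ncf1 at chr5:134696129-134705495 on the minus strand, Ncf4 at chr15:78075241-78093010 on the plus strand, Nox1 at chrX:130620960-130646393 on the minus strand, Duox2 at chr2:122106173-122123901 on the minus strand, Sod1 at chr16:90220987-90226569 on the plus strand, Sod2 at chr17:13200705-13210985 on the plus strand and Cat at chr2:103294061-103325310 on the minus strand. Each value sums reads over the exons of the gene on its strand.

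The first question was how the oxidase and scavenger genes changed between the graft and the cells recovered 4 days later. All 4 phagocyte oxidase genes fell in the colon and in the ileum. The 3 scavengers differed from the graft by less than 2-fold in the fits, and Nox1, all but unread in the graft, was read in every colon library.

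Cybb, the catalytic core of the phagocyte oxidase, stood at 9191, 14692 and 15212 normalized reads in the 3 graft libraries. The 3 colon day 4 libraries held 186, 262 and 468 and the 4 ileum day 4 libraries 615, 1078, 1588 and 1847. Every gut library was below every graft library. In edgeR's quasi-likelihood test with Benjamini-Hochberg adjustment over all 11842 genes fitted, Cybb fell 32.9-fold in the colon (log2 fold change -5.04, SE 0.733, adjusted p = 3.15e-06). In the ileum the fall was 7.54-fold (log2 fold change -2.91, SE 0.595, adjusted p = 0.000225).

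Ncf1, the organiser subunit, stood at 2009.8, 2232 and 2928 normalized reads in the graft, 41.2, 85.4 and 88.9 in the colon on day 4 and 102, 508, 608 and 770.3 in the ileum on day 4. No gut library reached the graft's lowest. The fitted fall was 26.4-fold in the colon (log2 fold change -4.72, SE 0.842, adjusted p = 4.25e-05) and 3.63-fold in the ileum (log2 fold change -1.86, SE 0.671, adjusted p = 0.0212). The ileal call was lost without ileum day 4 replicate 2 (adjusted p = 0.0617) and without graft replicate 3 (adjusted p = 0.0663). It was also lost with ileum day 4 of experiment 2 alone and with all 4 colon day 8 libraries. The range across the alternatives was 0.00667 to 0.0998.

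Ncf4, the regulatory p40phox subunit, stood at 3567, 3585 and 3929 normalized reads in the graft, 64.5, 163 and 237 in the colon on day 4 and 237, 433, 693 and 699 in the ileum on day 4. Its graft libraries were the closest together of the 4 phagocyte genes. It fell 18.6-fold in the colon (log2 fold change -4.22, SE 0.737, adjusted p = 3.34e-05) and 5.34-fold in the ileum (log2 fold change -2.42, SE 0.615, adjusted p = 0.00181).

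Cyba, the partner that gp91phox shares with NOX1, fell the least of the 4. It stood at 8407, 10494 and 11365 normalized reads in the graft, 1083, 1877 and 2377 in the colon on day 4 and 1484, 1852, 2953 and 3779 in the ileum on day 4. Here too the graft did not overlap with the gut. The fall was 4.46-fold in the colon (log2 fold change -2.16, SE 0.44, adjusted p = 0.000198) and 2.94-fold in the ileum (log2 fold change -1.55, SE 0.395, adjusted p = 0.00181).

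**Figure D1:**
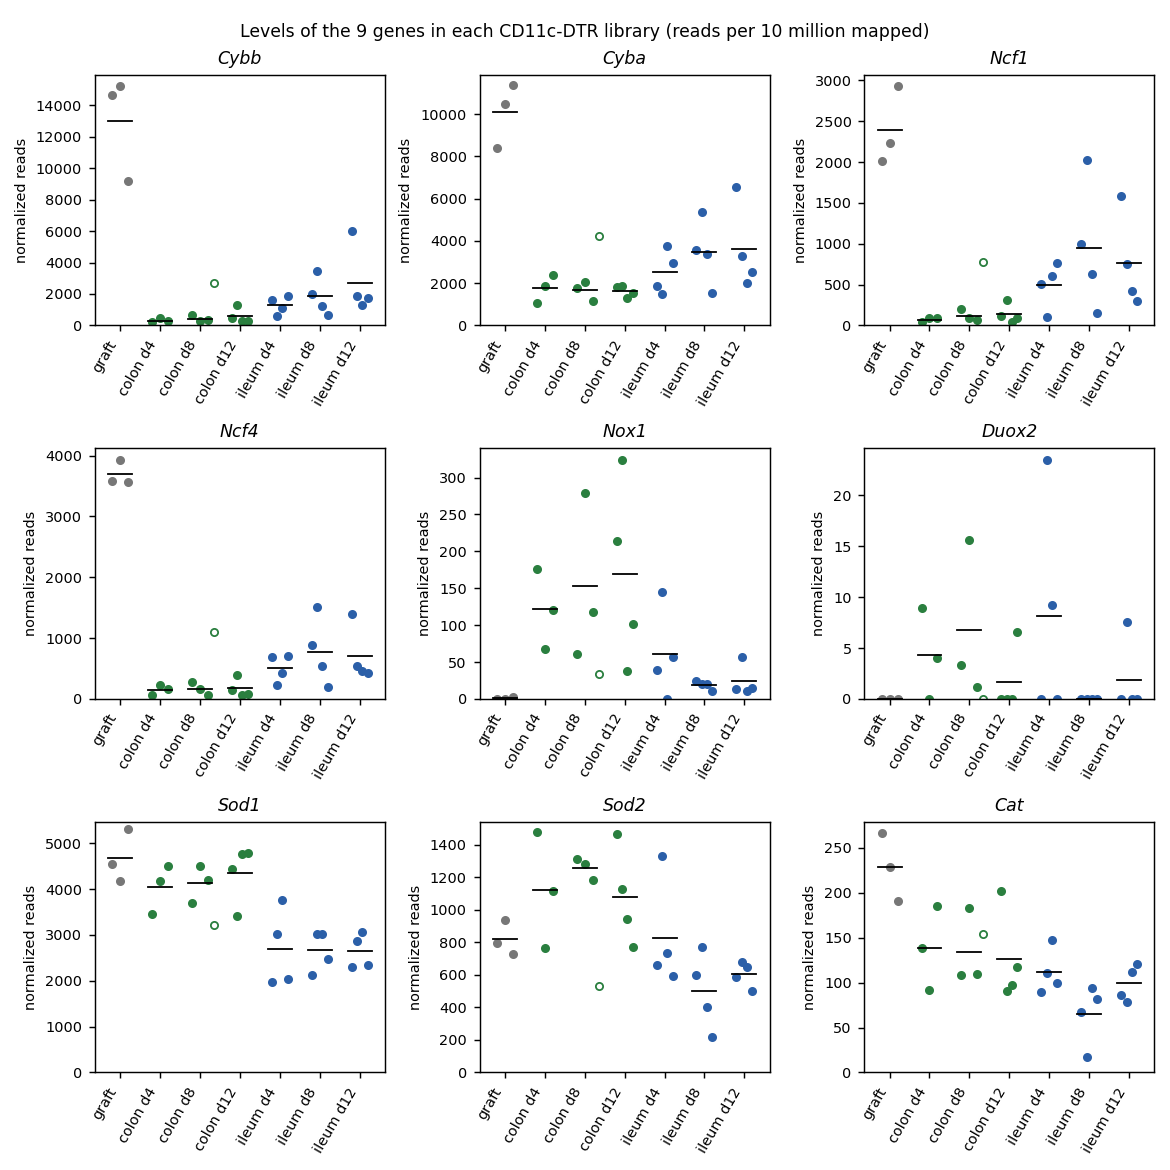
Normalized reads (reads per 10000000 mapped, linear axes from 0) of the 9 genes in each CD11c-DTR library by group. Filled points are libraries in the fits, bars are group means, and the open point is the colon day 8 library left out of the fits. Cybb lay between 9191 and 15212 in the graft and at most 6009 in every gut library, whereas Sod1 lay between 1978 and 5304 throughout.

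The scavengers gave a different picture. Sod1 stood at 4177, 4547 and 5304 normalized reads in the graft, 3456, 4165 and 4494 in the colon on day 4 and 1978, 2039.8, 3019 and 3769 in the ileum on day 4. Neither difference passed the test (log2 fold change 0.13, SE 0.274, adjusted p = 0.702 in the colon, whose sign turned to -0.21 with library totals, and log2 fold change -0.34, SE 0.256, adjusted p = 0.27 in the ileum). With library totals in place of TMM the ileal difference passed (log2 fold change -0.79, adjusted p = 0.00552). It also passed without ileum day 4 replicate 3 (adjusted p = 0.0318) and with ileum day 4 of experiment 2 alone, over a range of 0.00552 to 0.557.

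Sod2 rose in the colon by day 4, from 729, 794 and 936 normalized reads in the graft to 765, 1112 and 1479. One colon library lay within the graft's range and 2 of 3 lay above it. The rise of 1.70-fold (log2 fold change 0.77, SE 0.287, adjusted p = 0.0248) was lost with library totals (log2 fold change 0.45, adjusted p = 0.277) and without graft replicate 1, graft replicate 3 or colon day 4 replicate 1 (adjusted p = 0.0857, 0.0811 and 0.128), over a range of 0.00231 to 0.277. In the ileum Sod2 stood at 592, 660.3, 737 and 1328 and did not pass the test (log2 fold change 0.46, SE 0.272, adjusted p = 0.155).

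Cat stood at 191, 229 and 267 normalized reads in the graft, 91.9, 138 and 185 in the colon and 89.1, 99.9, 111 and 147 in the ileum on day 4. All 7 gut libraries lay below the graft's lowest, yet the fitted differences did not pass (log2 fold change -0.39, SE 0.396, adjusted p = 0.402 in the colon and log2 fold change -0.62, SE 0.388, adjusted p = 0.181 in the ileum). With library totals the ileal difference passed (log2 fold change -1.06, adjusted p = 0.0198, range 0.0198 to 0.309).

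Counted over the 7 members that reached 50 normalized reads in at least 1 library of each compared group, 4 fell and 1 rose by day 4 in the colon, against 28.8% and 21.5% of the 8195 genes that met the same level. In the ileum 4 of 7 fell and none rose, against 25.6% and 19% of 8564 genes (edgeR; the 3 remaining members also missed an unadjusted p of 0.05, and DESeq2 called no member higher there). The median log2 fold change over the members was -2.16 in the colon and -1.55 in the ileum, beside -0.12 and -0.11 over all such genes. The 2 comparisons share the graft libraries. In the same colon comparison all 12 pan-leukocyte genes fell, with a median of -4.27, and in the ileum 11 of 12 fell, with a median of -2.16. The part of these cell-type differences in the members' falls was not tested. Scaling to library totals moved the median over all fitted genes from 0.21 to -0.12 in the colon comparison and from 0.23 to -0.20 in the ileum comparison, and the share of calls that were higher from 59.5% to 48.4% and from 63.8% to 47.5%.

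Nox1 was counted 0, 0 and 1 times in the graft libraries. The colon day 4 libraries held 23, 59 and 98 counts, or 68.2, 120.0 and 176 normalized reads, and the ileum day 4 libraries 0, 8, 12 and 68 counts, or 0, 39.6, 57.1 and 145. Pooled over libraries, the level was 167-fold (95% exact counting interval 29.6 to 6624) that of the graft in the colon and 111-fold (95% exact counting interval 19.4 to 4429) in the ileum. Ileum replicate 2 gave 68 of the 88 ileal counts, and without it the ileal ratio was 46.6-fold (95% exact counting interval 7.45 to 1932). Nox1 passed the filter on low values only through gut libraries, so its difference from the graft is given as a description. PCR copies are not independent molecules, and such intervals cover counting error alone.

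Duox2 was not detectable beyond a few reads. It had 0 counts in all 3 graft libraries, 1 count or more in 9 of 22 engrafted CD11c-DTR libraries and at most 11 counts in any of them, at 23.5 normalized reads in an ileum day 4 library. Only 4 of the 22 exceeded 3 counts, the number that a count of 0 leaves possible. It failed the filter and was not fitted.

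**Figure D2:**
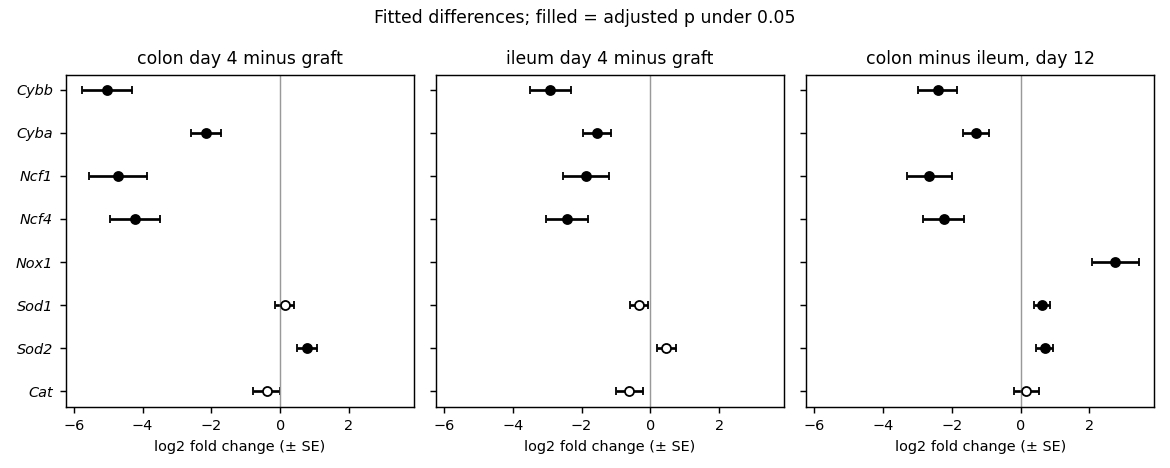
Fitted log2 fold changes with standard errors (edgeR) for the members that reached 50 normalized reads in both compared groups, on one shared axis. Filled points passed an adjusted p of 0.05. The 4 phagocyte oxidase genes lie left of 0 in all 3 panels, and Nox1, Sod1 and Sod2 lie right of 0 in the comparison of colon with ileum on day 12.

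The members were next followed over time within each gut segment. No member passed the test between day 4 and day 12 in either segment. In the colon 0 of 8 members were called, at an unadjusted p under 0.05 also 0, and no gene of the 10270 compared was called (0%) by edgeR, while DESeq2 called 1 gene and no member. In the ileum 0 of 8 were called, with 2 at an unadjusted p under 0.05, against 2.03% of 10717 genes, and DESeq2 called no member. Cybb in the ileum had a log2 fold change of 1.17 (SE 0.544, adjusted p = 0.258) and Nox1 one of -1.58 (SE 0.702, adjusted p = 0.236). These were the 2 with an unadjusted p under 0.05. Without ileum day 12 replicate 1 the Cybb value was 0.37.

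By day 12 the fall from the graft was still there. Cybb stood at 251, 307, 453 and 1327 normalized reads in the 4 colon libraries and at 1295, 1751, 1842 and 6009 in the 4 ileum libraries, all below the graft. Its log2 fold change from the graft was -4.16 in the colon (SE 0.622, adjusted p = 4.21e-06) and -1.74 in the ileum (SE 0.575, adjusted p = 0.0129). One ileum library, replicate 1, was far above the others. Without it the ileal value was -2.54.

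In the colon on day 12, Cyba, Ncf1 and Ncf4 also fell from the graft, by log2 values of -2.29, -3.82 and -4.12, and Sod2 rose (log2 fold change 0.72, adjusted p = 0.0248). The Sod2 call was lost with library totals (adjusted p = 0.309), without the low-count filter, and without graft replicate 1, graft replicate 3 or colon day 12 replicate 1 (adjusted p = 0.0964, 0.0867 and 0.0609), over a range of 0.00318 to 0.309. This made 4 members lower and 1 higher of 7, against 30% and 22.6% of 8343 genes. In the ileum 3 of 7 fell and none rose, against 25% and 18% of 8572 genes (none rose at an unadjusted p under 0.05 in edgeR or by DESeq2). Those that fell were Cybb, Ncf4 (log2 fold change -1.89, adjusted p = 0.00987) and Cyba (log2 fold change -0.99, adjusted p = 0.0346). Ncf1 missed the threshold (log2 fold change -1.17, adjusted p = 0.133) and passed it with library totals (adjusted p = 0.0386) and without ileum day 12 replicate 1 (adjusted p = 0.0208, range 0.0208 to 0.288). Cyba lost its call without any one of graft replicates 2 and 3 and ileum day 12 replicates 2, 3 and 4 (adjusted p = 0.0695, 0.104, 0.0808, 0.112 and 0.0903), with the compared groups only and with all 4 colon day 8 libraries, over a range of 0.00147 to 0.112. Sod1 and Cat differed from the graft in neither segment on day 12 with TMM (Sod1 log2 fold changes 0.26 in the colon and -0.36 in the ileum, Cat -0.52 and -0.69), and the Sod1 colon value turned to -0.11 with library totals. With library totals Sod1 was lower in the ileum (log2 fold change -0.82, adjusted p = 0.00404, range 0.00404 to 0.508), and Cat was lower in the ileum (-1.19, adjusted p = 0.00757, range 0.00757 to 0.241) and in the colon (-0.85, adjusted p = 0.0452, range 0.0452 to 0.384). That scaling moved the median over all fitted genes from 0.24 to -0.10 in the colon and from 0.22 to -0.25 in the ileum on day 12, and the share of calls that were higher from 60.2% to 48.6% and from 64.2% to 45.4%.

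The study compared the macrophages of the colon with those of the ileum, and the members were set side by side for each day. The phagocyte oxidase genes were lower in the colon than in the ileum on days 8 and 12, Sod2 was higher on both days, and Nox1 was higher on day 12. With all 4 colon day 8 libraries in the fit, the phagocyte oxidase calls of day 8 were lost. The Sod2 call of day 12 was lost when most of the single libraries of that day were left out. Sod1 was named by the study from these samples, so its direction here is not independent evidence.

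On day 4 only Ncf1 passed the test (log2 fold change -2.86 for colon against ileum, SE 0.776, adjusted p = 0.0462), which is 1 of 8 members lower and 0 higher, against 1.95% lower and 0.609% higher of 10181 genes (no member was higher at an unadjusted p under 0.05 in edgeR or by DESeq2, which called Cybb, Ncf1 and Ncf4 lower). Leaving out any one of 6 of the 7 day 4 libraries, all but ileum replicate 2, lost this call (adjusted p = 0.0573 without ileum replicate 3 to 0.196 without colon replicate 1, over a range of 0.00281 to 0.196). With the transfer experiment as a block, 2 members were called, Ncf1 (adjusted p = 0.032, range as above) and Cybb (log2 fold change -2.35, adjusted p = 0.0256, range 0.00947 to 0.214). The unblocked Cybb difference was -2.13 (SE 0.629, adjusted p = 0.0578). The 4 ileum libraries fall in experiments 1 and 2. Their epithelial sums were 126721 and 131272 normalized reads in experiment 1 and 29263 and 37644 in experiment 2. All 4 lay below the colon's day 4 range of 144994 to 167015. The part of this in the members' values was not tested. With the 2 of experiment 2 alone 4 members were called, Cybb, Ncf1, Ncf4 and Sod1 (adjusted p = 0.00998, 0.00495, 0.0292 and 0.00724). Their ranges were 0.00947 to 0.214, 0.00281 to 0.196, 0.0292 to 0.327 and 0.00724 to 0.615. The calls over all fitted genes rose in these settings too. They numbered 377 in the main fit, 1080 with DESeq2, 1265 under the block and 3067 with experiment 2 alone.

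On day 8 Cybb stood at 295, 342 and 672 normalized reads in the colon and at 663, 1258, 2014 and 3449 in the ileum (log2 fold change -2.31, SE 0.629, adjusted p = 0.00716). The highest colon library overlapped with the lowest ileum library. Ncf1, Ncf4 and Cyba were lower in the colon as well (log2 fold changes -3.22, -2.50 and -1.30; adjusted p = 0.00298, 0.00662 and 0.0173), and Sod2 was higher (log2 fold change 1.09, SE 0.267, adjusted p = 0.00369). In all, 4 of 7 members were lower and 1 was higher, against 14.3% and 17.3% of 9917 genes. The colon day 8 library left out of the fits held 2731 normalized reads of Cybb, 772 of Ncf1 and 1100.4 of Ncf4, above all 10 fitted colon libraries. Its pan-leukocyte sum of 21572 was also above theirs, whose part in the difference was not tested. With it in the fit, 1 of 7 members was called, Sod2 (log2 fold change 0.93), and the Cybb value was -0.82 (adjusted p = 0.407, range 0.00051 to 0.407). Cyba lost its call with library totals and without colon replicate 4 or ileum replicate 2 (adjusted p = 0.0505, 0.0909 and 0.0528; range 0.00588 to 0.308).

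On day 12 all 4 phagocyte oxidase genes were lower in the colon. Cybb differed 5.33-fold (log2 fold change -2.41, SE 0.564, adjusted p = 0.00269), and the highest colon library, at 1327 normalized reads, lay above the lowest ileum library, at 1295. Ncf1 stood at 46.3, 87.4, 113 and 315 normalized reads in the colon and 302, 421, 752 and 1580.3 in the ileum (log2 fold change -2.65, SE 0.663, adjusted p = 0.00427). Only the top colon library entered the ileal range.

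Ncf4 stood at 73.1, 75.9, 146 and 402 in the colon and 433, 455, 537 and 1395 in the ileum on day 12, without overlap (log2 fold change -2.23, SE 0.593, adjusted p = 0.00634). Cyba stood at 1286, 1545, 1808 and 1875 and 2012, 2523, 3299.9 and 6572, also without overlap (log2 fold change -1.30, SE 0.372, adjusted p = 0.0103). Without ileum replicate 1, the library with the most leukocyte reads, Cybb, Ncf1 and Ncf4 kept their calls at log2 fold changes of -1.62, -1.93 and -1.61, whereas Cyba lost its call at -0.78 (adjusted p = 0.0934, range 0.0025 to 0.0934).

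Nox1 was higher in the colon on day 12, at 37.8, 102, 214 and 324 normalized reads against 10.4, 13.6, 14.8 and 56.4 in the ileum (log2 fold change 2.75, SE 0.674, adjusted p = 0.00373). The lowest colon library lay below the highest ileum library, replicate 2, which alone of the ileum libraries of that day reached 50 normalized reads. On day 8 the values were 60.8, 118 and 279 and 10.2, 20.1, 20.2 and 24.4, with no overlap. No ileum library of that day reached 50 normalized reads, so the day 8 values are given as a description. On day 4 the difference did not pass (log2 fold change 0.74, SE 0.661, adjusted p = 0.556).

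Sod2 stood at 772, 942, 1130.3 and 1465 normalized reads in the colon and 498, 586, 650.0 and 677 in the ileum on day 12, without overlap (log2 fold change 0.70, SE 0.249, adjusted p = 0.0353). Sod1 stood at 3403, 4435, 4755 and 4794 and 2291, 2347, 2871 and 3060.1, again without overlap, a difference of 1.54-fold (log2 fold change 0.62, SE 0.238, adjusted p = 0.0491). Both calls were close to the threshold. The Sod2 call was lost without any one of 7 of the 8 day 12 libraries, all but colon replicate 4 (adjusted p up to 0.0947), and the Sod1 call without any one of 7, all but colon replicate 2 (adjusted p up to 0.148). RLE size factors, a fit without the low-count filter and a fit of the compared groups only also ended the Sod1 call, and all 4 colon day 8 libraries ended both. Colon and ileum libraries of day 12 form 4 pairs by the date in their titles, and by a number too where a date has several libraries of a segment. In all 4 pairs Cybb, Cyba, Ncf1 and Ncf4 were lower in the colon, and Nox1, Sod1 and Sod2 higher, while Cat was higher in 2 and lower in 2. The share of all genes that went 1 way in all 4 pairs was not counted, so these directions are a description. With the pair as a block, a fit chosen after seeing the data, the Sod1 call was lost (log2 fold change 0.56, adjusted p = 0.0643, range 0.0157 to 0.148), and the other 6 calls passed. Cat did not pass (log2 fold change 0.17, SE 0.351, adjusted p = 0.758).

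On day 12 the members therefore counted 4 lower and 3 higher of 8 in the colon, against 14.3% and 15.3% of 10271 genes, with 4 to 6 called when single libraries were left out, the 4 without ileum replicate 1. All 11 pan-leukocyte genes compared and all 9 macrophage genes compared were lower in the colon too, with medians of -2.29 and -2.02 on the log2 scale, and 13 of 15 epithelial genes were higher, with a median of 1.59. Their part in the members' differences was not tested. With library totals, the share of calls higher in the colon was 56% on day 12 (47% with TMM) and 66.2% on day 8 (47.8% with TMM), and the median over all fitted genes moved from -0.01 to 0.11 on day 12 and from -0.05 to 0.24 on day 8.

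Since leukocyte and epithelial reads differed between libraries, the members were also expressed per 1000 reads of the 12 pan-leukocyte genes. No test was run on these ratios, which were formed after the levels were known. Ncf4 gave 35.9 to 41.0 in the graft, 28.6 to 52.2 in the 10 colon libraries and 33.4 to 56.3 in the 12 ileum libraries, with medians of 39.8, 43.2 and 38.0. The large fall of Ncf4 in normalized reads had no counterpart on this scale, where the 3 ranges overlapped.

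Cybb gave 92.4 to 163 per 1000 pan-leukocyte reads in the graft, 70.0 to 171 in the colon and 86.9 to 167 in the ileum, and Ncf1 gave 22.3 to 29.4, 19.6 to 40.4 and 19.5 to 75.9. For both genes the 3 ranges overlapped with the days pooled. In graft, colon and ileum the medians were 159, 105 and 118 for Cybb and 23.3, 28.6 and 41.3 for Ncf1. By day, Ncf1 in ileum day 8 gave 30.6 to 75.9, all above the graft, and the other gut groups overlapped with the graft. Cyba gave 93.5 to 114 in the graft, 121 to 319 in the ileum and 241 to 634 in the colon, so that graft and gut did not overlap. The medians were 109, 201 and 548. Cyba is used by oxidases of epithelial cells as well as phagocytes.

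**Figure D3:**
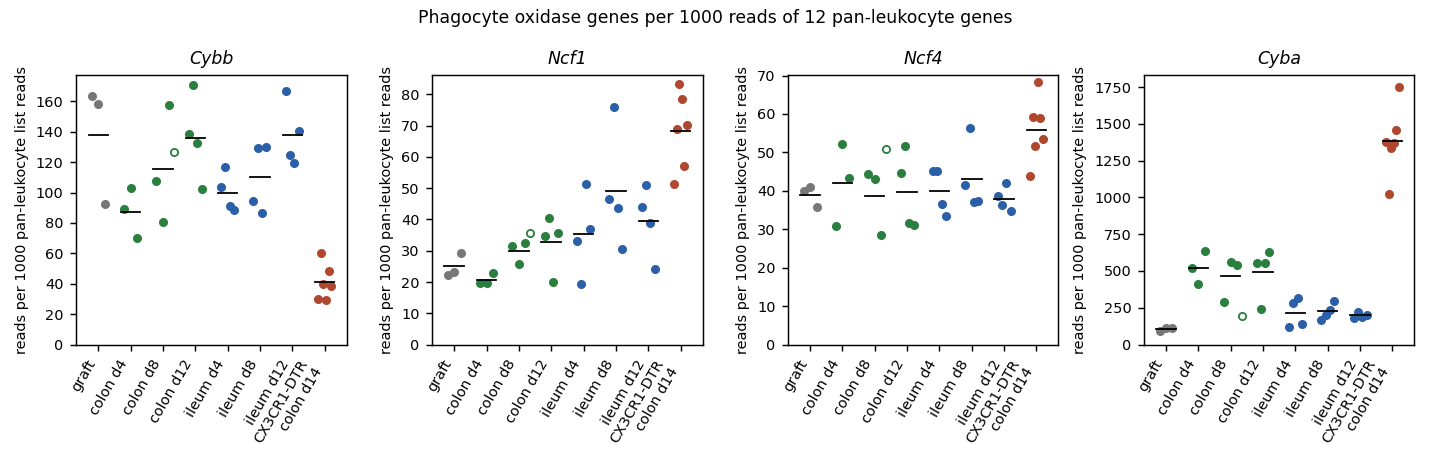
Reads of 4 phagocyte oxidase genes per 1000 reads of the 12 pan-leukocyte genes in each library (linear axes from 0; bars are group means; the open point is the colon day 8 library left out of the fits). Ncf4 stayed between 28.6 and 56.3 across the fitted CD11c-DTR libraries, and Cyba ran from 1024 to 1753 in the CX3CR1-DTR libraries against at most 634 in the others that were fitted.

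Per 1000 reads of the 15 epithelial genes, Nox1 gave 0.295 to 3.06 in the colon and 0 to 1.52 in the ileum, with medians of 0.816 and 0.616, and the ranges overlapped. Sod1 gave 23.8 to 38.6 in the colon and 23.0 to 115 in the ileum. On this scale the median of Sod1 was higher in the ileum (64.6 against 29.0), the opposite order to its normalized reads.

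Across the 22 engrafted CD11c-DTR libraries, log2 levels of Sod1 and of the summed epithelial genes had a Pearson r of 0.89, Sod2 one of 0.77 and Nox1 one of 0.65. With the summed pan-leukocyte genes, Ncf4 had an r of 0.99, Ncf1 one of 0.97, Cybb one of 0.97 and Cyba one of 0.87. These values describe libraries that share gut segment, day and experiment.

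**Figure D4:**
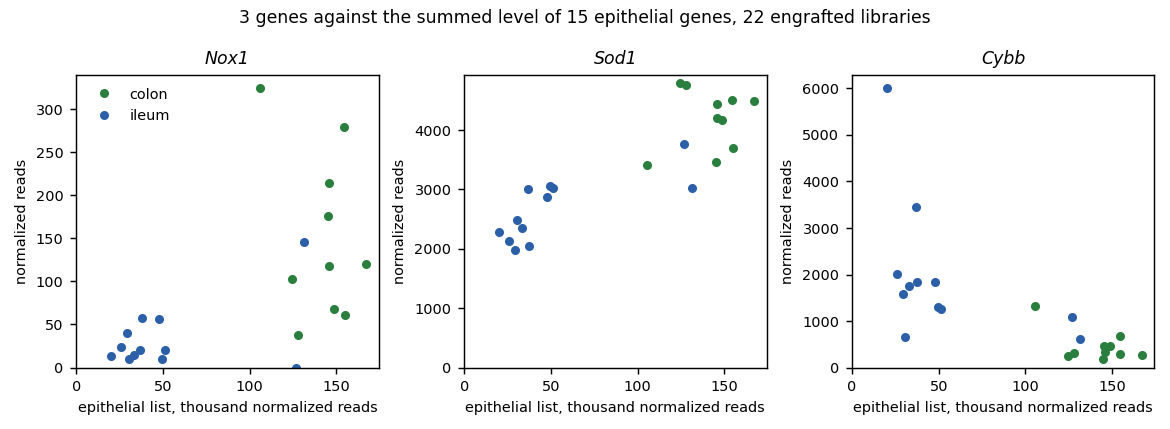
Normalized reads of Nox1, Sod1 and Cybb against the summed level of 15 epithelial genes in the 22 engrafted CD11c-DTR libraries (linear axes from 0; green colon, blue ileum). Sod1 is higher where the epithelial sum is higher (r = 0.89 on log2 values) and Cybb is lower (r = -0.83).

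Over all 25 fitted libraries the 3 other phagocyte oxidase genes followed Cybb, with Pearson r of 0.98 for Ncf4, 0.95 for Ncf1 and 0.91 for Cyba on log2(normalized reads + 50). Nox1 ran the other way (r = -0.67), and with the graft included Sod1 had little relation to Cybb (r = -0.19). In the 22 engrafted libraries alone, Sod1 had an r of -0.78 with the pan-leukocyte sum, where Cybb had 0.97. Of all tested genes, those most like Cybb were Dock10 (0.99), Itgb2 (0.98), Tlr13 (0.98) and Tifab (0.98). Those most like Sod1 were Ndufb11 (0.90), Plp2 (0.90), Pxylp1 (0.89) and Zfand2b (0.89), and those most like Nox1 were Gsdmcl-ps (0.95), 5033404E19Rik (0.92), Pla2g3 (0.92) and Lgals12 (0.91).

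The other genes of these pathways were taken as 51 partner genes in 6 roles, of which 45 were fitted. Of the 6 phagocyte oxidase partners, 6 fell from the graft to the colon on day 4 and 4 fell in the ileum, and 5 were lower in the colon than in the ileum on day 12, against 28.8%, 25.6% and 14.3% of all genes compared. Rac2, the Rac GTPase of blood cells, went from 6479 to 7301 normalized reads in the graft to 117 to 193 in the colon and 230.4 to 1219.6 in the ileum on day 4 (log2 fold change -5.06, SE 0.643, adjusted p = 4.85e-07 in the colon). Rac1, the Rac GTPase of most cell types, fell by 0.74 on the log2 scale in the colon (SE 0.227, adjusted p = 0.00715) and had a colon to ileum difference of 0.43 on day 12 that did not pass (adjusted p = 0.0991).

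Of the 11 other oxidases and oxidant producers, 5 were fitted. Noxo1 stood at 16.8 to 24.2 normalized reads in the graft, 1176 to 2151 in the colon and 433 to 767 in the ileum on day 12, and Noxa1 at 0 in all 3 graft libraries, 503 to 1115 in the colon and 91.7 to 301 in the ileum. Both were higher in the colon than in the ileum on day 12 (log2 fold changes 1.38 and 1.89; adjusted p = 0.00118 and 0.00132), with no overlap. Xdh, which encodes xanthine dehydrogenase, was lower in the colon (log2 fold change -1.36, adjusted p = 0.00131).

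Of the 2 dismutase partners, Ccs, the copper chaperone of SOD1, rose in the colon (log2 fold change 1.23, SE 0.418, adjusted p = 0.0144), while Sod3, the secreted dismutase, stayed too low in the graft for a count. Among 12 genes of the glutathione system, 4 rose and 2 fell from the graft to the colon on day 4, of 8 compared. Of all genes compared, 21.5% rose and 28.8% fell. Gpx1, the common cytosolic glutathione peroxidase, fell from 21810.3 to 24415 to 4096 to 5763 normalized reads (log2 fold change -1.93, SE 0.28, adjusted p = 3.18e-06). Gpx2, the gastrointestinal glutathione peroxidase, was at 0 to 2.42 in the graft and 3489 to 4133 in the colon. Gpx4, which reduces lipid peroxides, did not pass (log2 fold change -0.34, SE 0.259, adjusted p = 0.261).

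Among 13 genes of the peroxiredoxin and thioredoxin system, 6 rose and 2 fell in the colon by day 4, of 11 compared. Prdx6, a peroxiredoxin that also acts on phospholipids, stood at 1647 to 1892 normalized reads in the graft and 13588 to 16750.0 in the colon, and was higher in the colon than in the ileum on day 12 (log2 fold change 2.26, SE 0.416, adjusted p = 0.000605). Txn1, thioredoxin, rose in the colon (log2 fold change 2.70, SE 0.436, adjusted p = 1.23e-05) and Prdx5 fell (log2 fold change -1.57, SE 0.32, adjusted p = 0.000192). Of the 7 genes of the NRF2 axis, 2 rose and 3 fell in the colon, of 5 compared. The metallothionein Mt1 rose (log2 fold change 3.57, SE 0.41, adjusted p = 1.08e-07), Nfe2l2, which encodes NRF2 itself, rose (log2 fold change 0.78, adjusted p = 0.0322), and G6pdx, the entry enzyme of the pentose phosphate pathway that makes NADPH, fell (log2 fold change -2.47, adjusted p = 1.29e-07). Over all partners compared in the colon on day 4, 13 rose and 14 fell of 32, where 21.5% of all genes compared rose and 28.8% fell.

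The CX3CR1-DTR recipients let the members be followed in the colon of another ablation model. Levels here are reads per 10000000 reads on genes, and a call needed an adjusted p under 0.05 and a change of at least 2-fold in a fit of 11718 genes over 13 libraries. These libraries were counted in another table, and the model, the run and the day of harvest (12 and 14) cannot be told apart. Gpx4, which most cells need, had 4025 to 4243 reads in the graft, 2802 to 3603 in the CD11c-DTR colon on day 12 and 0 to 26.4 in the CX3CR1-DTR libraries, and Nfe2l2 had 2010.5 to 3135 and 79.8 to 145 in the latter 2, so differences between the tables are large for some genes that most cells use. CX3CR1-DTR replicate 1 also stood apart from the other 5. It held 98.1 reads of Sod2 against 1735 to 2248 in the others. Without it, Cybb, Ncf1 and Ncf4 had log2 fold changes from the graft of -6.63, -3.51 and -4.40 (adjusted p = 1.17e-08, 1.04e-06 and 1.34e-07), and from the CD11c-DTR colon of -2.52, 0.29 and -0.29 (adjusted p = 0.000124, 0.528 and 0.523). Sod1 had 0.17 and -0.13 (adjusted p = 0.537 and 0.631), and Sod2 had 0.25 against the CD11c-DTR colon (adjusted p = 0.171).

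Cybb was again low. Cybb in the 6 CX3CR1-DTR libraries had a lowest value of 105, a median of 178 and a highest value of 268, against 13363, 21382 and 21573 in the graft and 445, 547, 664 and 2252 in the CD11c-DTR colon on day 12. No library overlapped with either group. It was 88.1-fold lower than the graft (log2 fold change -6.46, SE 0.486, adjusted p = 2.63e-08) and 5.63-fold lower than the CD11c-DTR colon (log2 fold change -2.49, SE 0.425, adjusted p = 0.00015).

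Ncf1 (lowest 191, median 296, highest 392) and Ncf4 (lowest 146, median 240.1, highest 335) overlapped with the CD11c-DTR colon. Both were lower than the graft (log2 fold changes -3.29 and -4.19; adjusted p = 4.18e-06 and 4.67e-07), and neither differed from the CD11c-DTR colon beyond the spread (log2 fold changes 0.32 and -0.27; SE 0.403 and 0.4; adjusted p = 0.507 and 0.582). Ncf1 passed without CD11c-DTR colon day 12 replicate 2 (log2 fold change 1.08, adjusted p = 0.00478, range 0.00478 to 0.886), and the sign for Ncf4 turned to 0.55 without that library.

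Cyba was higher in the CX3CR1-DTR libraries (lowest 4564, median 5226, highest 10500.3) than in the CD11c-DTR colon (2293, 2647, 2746 and 3182), by 2.18-fold (SE 0.241 on the log2 scale, adjusted p = 0.001). All 6 lay above all 4. Without replicate 1, which was the highest, the difference was 0.92 on the log2 scale (adjusted p = 0.000112, range 0.000112 to 0.00641), below 2-fold. Per 1000 pan-leukocyte reads, Cyba gave 1024 to 1753 in the CX3CR1-DTR libraries, Cybb 29.0 to 60.1, Ncf1 51.3 to 83.2 and Ncf4 43.9 to 68.3, so that Cyba and Ncf1 lay above and Cybb below the colon on that scale while Ncf4 overlapped. Ncf1's lowest value there was above the colon's highest of 40.4. Single genes in the base of this scale differed between the models. Of 10 pan-leukocyte genes compared, 2 were lower in the CX3CR1-DTR colon than in the CD11c-DTR colon and 0 higher. Over all 9526 genes compared, 21.4% were lower and 14.3% higher. The median log2 fold change of the 10 genes was -0.12 and the lowest was -4.16. Up to 1 of the 12 genes was at 0 in a CX3CR1-DTR library.

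Nox1 had 0, 1, 2, 4, 4 and 12 counts in the 6 CX3CR1-DTR libraries, 23 in all, against 307 in the 4 CD11c-DTR colon libraries of day 12. The pooled ratio was 0.0675 (95% exact counting interval 0.0421 to 0.103). Against the graft it was 13.8-fold (95% exact counting interval 2.24 to 568). Noxo1, which encodes its organiser, was higher in the CX3CR1-DTR colon than in the CD11c-DTR colon, at 4889 to 9577 against 2096 to 3149 (log2 fold change 1.36, SE 0.198, adjusted p = 3.56e-05, and without replicate 1 1.28 with an adjusted p of 6.92e-06). The summed epithelial level was 201827 to 261266 and 179423 to 228128 in the 2 groups, with at most 1 of the 15 genes at 0, and the pan-leukocyte sum 2726 to 7640.3 and 4131 to 13199. Duox2 had 8 counts in all over 4 of the 6 libraries.

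Sod1 (lowest 2133, median 5775, highest 10216) differed neither from the graft (log2 fold change 0.10, SE 0.343, adjusted p = 0.801; the sign turned with RLE, DESeq2 and library totals) nor from the CD11c-DTR colon (log2 fold change -0.34, SE 0.309, adjusted p = 0.355) beyond the spread. Sod2 (lowest 98.1, median 2111, highest 2248) did not pass against the graft (log2 fold change 0.87, SE 0.562, adjusted p = 0.172), but without replicate 1 it was higher (log2 fold change 1.02, adjusted p = 9.18e-05, range 9.18e-05 to 0.355). Cat was counted 0, 0, 1, 2, 5 and 7 times, or 0, 0, 4.39, 13.6, 14.2 and 16.6 reads, against 278, 324 and 388 in the graft and 153, 174, 208 and 296 in the CD11c-DTR colon. Cat passed the filter only through the CD11c-DTR set, and its difference lies between the 2 tables, like those of Gpx4 and Nfe2l2.

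Of the 6 members that reached 50 reads in both groups, 3 were lower than the graft (Cybb, Ncf1 and Ncf4) and 0 higher, against 29.1% and 24.1% of 7629 genes. None was higher at an unadjusted p under 0.05 in edgeR or by DESeq2. Cyba differed at an adjusted p of 0.00231 but by 1.97-fold, under the 2-fold limit. It was called in 6 of 14 alternatives, namely RLE size factors, DESeq2, library totals, and without graft replicate 1 or CX3CR1-DTR replicate 1 or 6. Without replicate 1 the count called was 5, with Cyba lower (log2 fold change -1.32) and Sod2 higher added. Against the CD11c-DTR colon, 1 was higher (Cyba) and 1 lower (Cybb), against 14.3% and 21.4% of 9526 genes, and 1 was called without replicate 1. Of the partners compared, 16 were lower and 11 higher than the graft of 32, all 6 phagocyte oxidase partners among the lower.

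**Figure D5:**
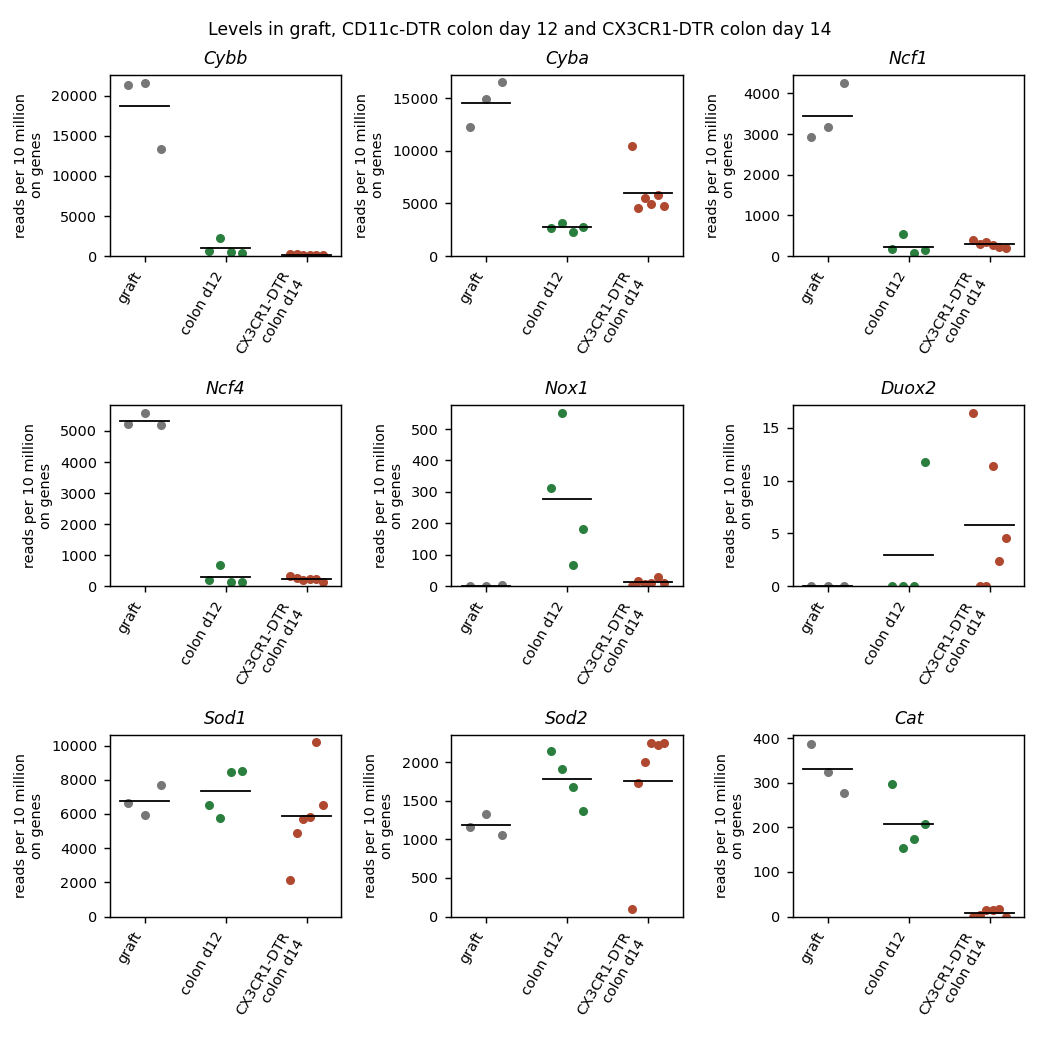
Levels of the 9 genes in the graft (n = 3), the CD11c-DTR colon on day 12 (n = 4) and the CX3CR1-DTR colon on day 14 (n = 6), as reads per 10000000 reads on genes (linear axes from 0; bars are group means). Cybb is lowest in the CX3CR1-DTR libraries (105 to 268), Cat stands at 0 to 16.6 there, and one CX3CR1-DTR library has 98.1 reads of Sod2 and 10500.3 of Cyba.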

How the data were processed

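RNA was measured in 32 libraries by a 3′-biased multiplexed protocol derived from MARS-seq. According to the methods, the authors aligned reads with HISAT 0.1.6 to mm9, kept uniquely mapped reads and deposited raw counts of reads on RefSeq exons made with HOMER on the gene's strand, without normalization. The number of value columns with no library name, which were not used here, was 52.

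The counts were rescaled to 10000000 mapped reads, or to 10000000 reads on genes where CX3CR1-DTR libraries entered. Differences were tested with edgeR 4.0.16 in R 4.3.3 (TMM, quasi-likelihood test, Benjamini-Hochberg adjustment) in 1 fit of 7 groups and 25 CD11c-DTR libraries (11842 genes) and 1 fit of 3 groups and 13 libraries (11718 genes, on symbols shared by both tables), each after a filter that asked for 50 normalized reads or more in 3 or more libraries. A call was an adjusted p under 0.05, with at least 2-fold in the second fit. Members, partners and all genes were counted only where they reached 50 normalized reads in at least 1 library of both groups. The code was tested on simulated data. The precision follows from 3 to 6 libraries a group and from 591817 to 5228664 reads on genes in each. Ratios of pooled Nox1 counts carry exact 95% intervals, and a count of 0 allows up to 3 counts.

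The members and lists were chosen with earlier results of these data known. Named partners are the up to 3 of each role with the highest mean level over the 25 libraries, except 1 that is not reported here, and named companions the 4 genes with the highest Pearson r to Cybb, Sod1 or Nox1. Alternatives were DESeq2 1.42.0, RLE size factors, library totals, no low-count filter, only the compared groups, the transfer experiment as a block, all 4 colon day 8 libraries, ileum day 4 of experiment 2 alone, and leaving out each library. A block of day 12 colon and ileum pairs was added after seeing the data. These were paired by the date and, where given, the number in their titles. The deviations of the 4 pairs from their group means correlated at 0.178 to 0.517. No pair of libraries of a group agreed within sampling noise (lowest chi-square per degree of freedom 4.72 over 48 pairs). Promoter sequences came from RefSeq (GRCm38.p6), used for letters only, while positions on mm9 came from the count tables.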

Additional observations from a re-analysis of the deposited data

Results flagged for a closer look

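Libraries far from the rest of their group by Dixon's test were found in 6 of the 43 groups of values tested, where chance gives about 1 in 20. In ileum day 12 replicate 1, Cybb stood at 6008.64 and Ncf4 at 1394.62 normalized reads, above the other 3 libraries, and its pan-leukocyte sum was the highest of all gut libraries. In ileum day 12 replicate 2, Nox1 stood at 56.3769 normalized reads. In colon day 12 replicate 4, Duox2 stood at 6.59697 normalized reads, which are 4 counts, against 0 in the other 3, where any value above 0 would stand out by this test. In CX3CR1-DTR replicate 1, Cyba stood at 10500.3 and Sod2 at 98.0575 reads per 10000000 reads on genes.

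The change from the graft differed between colon and ileum, by edgeR's test of that difference, for Ncf1 on day 4 (-2.86 on the log2 scale). On day 12 it differed for Cybb (-2.41), Cyba (-1.30), Ncf1 (-2.65), Ncf4 (-2.23), Nox1 (2.75), Sod1 (0.62) and Sod2 (0.70), where the graft term drops out and the test is that of colon against ileum.

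The colon day 8 library outside the fits held 5 reads of Nox1, or 33.5496 normalized reads, above the graft's highest of 2.42.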

How the results depend on the processing

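Each of the 79 pairs of a member and a comparison was recomputed under the alternatives, which gave 1152 values. Of these, 1030 kept direction and side of the threshold, 58 lost the call, 27 gained one and 37 turned sign. In 33 pairs no alternative changed call or direction. The counts of members called moved within 1.5 times of the value reported except as follows. For graft against ileum day 12, library totals gave 6. For colon against ileum on day 4, DESeq2 gave 3, library totals 0, the compared groups alone 0, all 4 colon day 8 libraries 0 and ileum day 4 of experiment 2 alone 4, and leaving out single libraries gave 0 to 3. For colon against ileum on day 8, all 4 colon day 8 libraries gave 1, and on day 12 leaving out single libraries gave 4 to 6. For CX3CR1-DTR against the graft leaving out single libraries gave 3 to 5, and against the CD11c-DTR colon 1 to 3.

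With the transfer experiment as a block, 2 members were called for colon against ileum on day 4, and the Sod1 change between ileum days 4 and 12 turned to 0.06. No other member's call changed under that block. With the day 12 pairs as a block, 6 members were called for colon against ileum on day 12, against 7. Libraries of different groups from the same experiment had a median correlation of deviations of 0.0204 over 96 pairs, against -0.0089 over 171 pairs from other experiments, so the block was kept as an alternative.

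Differences under 1 on the log2 scale that did not pass turned sign in some settings, and the cause was not tested. With library totals Sod1 against the graft was -0.21 in colon day 4, -0.11 in colon day 12 and -0.20 in the CX3CR1-DTR colon, where RLE gave -0.01 and DESeq2 -0.01, and Sod2 in ileum day 12 was -0.45 (-0.05 without the filter). With ileum day 4 of experiment 2 alone, changes to ileum day 12 were 0.47 for Sod1, 0.01 for Sod2 and 0.19 for Cat. Sod2 between the 2 models was 0.01 with the compared groups alone. Leaving out single libraries, the ranges were as follows. Sod2 in ileum day 12 against the graft ran from -0.07 to 0.10. Between colon days 4 and 12, Cyba ran from -0.42 to 0.09, Ncf4 from -0.70 to 0.62, Nox1 from -0.10 to 0.76, Sod1 from -0.01 to 0.24, Sod2 from -0.21 to 0.15 and Cat from -0.32 to 0.12. Between ileum days 4 and 12, Ncf1 ran from -0.02 to 0.94, Ncf4 from -0.10 to 0.74, Sod1 from -0.17 to 0.26 and Cat from -0.26 to 0.11. Cat in colon against ileum ran from -0.03 to 0.41 on day 4 and from -0.02 to 0.35 on day 12. Sod1 in the CX3CR1-DTR colon against the graft ran from -0.13 to 0.17. Against the CD11c-DTR colon, Ncf4 ran from -0.51 to 0.55 and Sod2 from -0.14 to 0.25.

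Over all genes and with other libraries or settings, the calls between ileum days 4 and 12 (272) ran from 0 to 1142, those for colon against ileum on day 4 (377) from 0 to 3067 and on day 8 (4144) from 2647, without colon day 8 replicate 4, to 4613. Under the block these counts were 0 for the ileum days and 1265 for colon against ileum on day 4, under DESeq2 654 and 1080. DESeq2 called 1 gene between colon days 4 and 12. Depth limits Duox2, with at most 11 counts in a library, and Nox1 in the graft, with 1 count.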
